A study of Mus musculus with 10 samples.

Results

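The 7 pericyte and vessel genes described here, Rgs5, Rgs4, Angpt1, Tek, Tie1, Acta2 and Pdgfra, stand for pericytes, smooth muscle, endothelium and mesenchyme in mouse thymus. They were taken as every feature of the deposited table annotated to exactly 1 of these symbols, which gave 8 of 23332 features and 7 of 14860 genes with a feature of their own. Rgs5 had 2 features and the other 6 genes had 1 each. The 10 samples of thymus, labelled normal, came from C57BL6/129 hybrid mice aged 4 to 5 weeks. Their groups were p53(246/246)mdm2(-/-) (mutant p53 without Mdm2, n = 2), p53(-/-)mdm2(-/-) (neither gene, n = 2), p53(246/246)mdm2(+/+) (mutant p53 with Mdm2, n = 3) and p53(-/-)mdm2(+/+) (p53-null with Mdm2, n = 3). All groups lacked wild-type p53, and the 246 is the number that the labels give the mutant allele. Values were log2 signals from Affymetrix whole-transcript arrays, so a difference of 1 is a doubling. The labels do not say that replicates were separate animals, so p-values measure spread between samples that may in part be technical.

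Capillaries are tubes of endothelial cells wrapped by pericytes, which share a contractile programme with the smooth muscle of larger vessels. Mural and mesenchymal cells secrete angiopoietin-1, the product of Angpt1, which activates the receptor Tie2, encoded by Tek, on endothelium and keeps vessels quiet and tight. Tie1 encodes the related receptor that pairs with Tie2, and in the thymus these vessels let progenitors in and mature T cells out. Rgs5 and Rgs4 encode small proteins that speed the shut-off of G protein signals, and Rgs5 is widely used as a pericyte marker. Acta2 encodes smooth muscle actin, and Pdgfra encodes a receptor for platelet-derived growth factor on mesenchymal cells.

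Rgs5, Rgs4 and Angpt1 are members because earlier results of these data showed them lower in mdm2(-/-) thymi, and the reason for taking the other 4 was not given. Differences between mdm2 genotypes in the members are therefore given as a description with no test. The p53 comparisons were tested. In bulk thymus, fewer cells of a type and less RNA per cell cannot be told apart. The array names in the labels had 3 prefixes, and 0 of them held both mdm2 genotypes, so mdm2 genotype and array-name prefix cannot be told apart. Both mdm2(+/+) groups shared 1 prefix. The mdm2(-/-) groups had a prefix each, so the p53 comparison without Mdm2 cannot be told apart from prefix either. Mdm2 itself had a log2 signal of 8.28 to 8.43 in the mdm2(-/-) samples and 9.47 to 9.62 in the mdm2(+/+) samples (difference -1.19, SE 0.07, limma's adjusted p = 9.24e-05, where adjustment was Benjamini-Hochberg over all features). That followed the labels, though the probes may lie outside the deleted part. The mean of the Y-linked genes Kdm5d and Eif2s3y was 3.59 in p53(-/-)mdm2(+/+) replicate 1 and 8.49 to 9.35 in the other 9 samples. Without that sample the mdm2 differences of Rgs5 (first feature), Rgs4, Angpt1 and Tie1 were -1.41, -1.03, -0.87 and 0.42.

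Rgs5 and Rgs4 are neighbours on chromosome 1, with 0 annotated genes between them in the RefSeq order of assembly GRCm38.p6. The 250 bases before each gene's annotated start are shown because these neighbours were both lower in the mdm2(-/-) thymi, and those of Tie1 because it was the member that was higher. The sequences are RefSeq's on GRCm38.p6, and 6 of the 7 members had an entry. Capitals mark CCAAT read on either strand (ATTGG on the strand printed), TATAAA and TATATA.
Rgs5, chr1:169655251-169655500, plus strand: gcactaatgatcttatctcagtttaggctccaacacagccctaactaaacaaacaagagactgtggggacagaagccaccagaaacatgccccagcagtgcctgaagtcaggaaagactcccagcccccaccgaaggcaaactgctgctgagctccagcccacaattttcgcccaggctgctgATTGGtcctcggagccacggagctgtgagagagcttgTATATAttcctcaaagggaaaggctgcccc
Rgs4, chr1:169747643-169747892, minus strand: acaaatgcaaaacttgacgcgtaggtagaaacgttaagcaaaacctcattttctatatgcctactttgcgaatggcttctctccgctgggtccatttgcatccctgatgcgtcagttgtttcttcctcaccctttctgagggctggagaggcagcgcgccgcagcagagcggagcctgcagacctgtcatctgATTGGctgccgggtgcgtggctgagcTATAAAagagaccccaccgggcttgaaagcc
Tie1, chr4:118489850-118490099, minus strand: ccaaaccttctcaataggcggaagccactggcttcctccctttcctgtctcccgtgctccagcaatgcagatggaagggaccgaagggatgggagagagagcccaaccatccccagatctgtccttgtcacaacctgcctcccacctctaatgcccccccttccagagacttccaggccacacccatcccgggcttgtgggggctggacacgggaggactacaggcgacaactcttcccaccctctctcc

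Both RGS promoters held CCAAT on the opposite strand followed by a TATA element. In Rgs5 the ATTGG lay 67 to 63 bases before the start and the TATATA 30 to 25 bases before it. In Rgs4 the ATTGG lay 57 to 53 bases before the start and the TATAAA 31 to 26 bases before it. Of 32851 RefSeq windows of the same length, 33.8% held CCAAT, 15.6% held TATAAA or TATATA, and 5.45% held both CCAAT and either TATA form. That last share takes either strand, any place in the window and any order. No share was worked out for the strand and order seen in Rgs5 and Rgs4. These genes were also shown because both were lower, so nothing is read from their shared letters. The windows of Tek, Tie1, Acta2 and Pdgfra held none of these letters. CANNTG was found in 5 of the 6 members (66.2% of all windows), and CACGTG (6.02%) and CCGGAA (12.0%) in 0 of the 6. All motifs were searched on both strands, TATATA reads the same on both, and a match is a string of letters and not a shown binding site.

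The signals of Rgs5 differed between its features. On the first feature (6755054) they were 6.74 and 6.61 in p53(246/246)mdm2(-/-), 7.09 and 6.07 in p53(-/-)mdm2(-/-), 8.23, 7.58 and 8.09 in p53(246/246)mdm2(+/+), and 8.06, 7.92 and 8.33 in p53(-/-)mdm2(+/+). Every mdm2(-/-) sample lay below every mdm2(+/+) sample, by at least 0.50. The first feature averaged 6.63 ± 0.42 (SD, n = 4) without Mdm2 and 8.04 ± 0.27 (SD, n = 6) with it, a difference of -1.41 (SE 0.20), which makes the mdm2(+/+) level 2.66-fold the mdm2(-/-) level. On the second feature (6755055) signals were 7.97 and 6.85 in p53(246/246)mdm2(-/-), 7.69 and 5.99 in p53(-/-)mdm2(-/-), 7.86, 7.30 and 7.36 in p53(246/246)mdm2(+/+), and 7.31, 7.25 and 7.72 in p53(-/-)mdm2(+/+). Here the genotypes overlapped, the highest sample of all was an mdm2(-/-) one, and the mdm2(-/-) samples spread widely. The second feature averaged 7.13 ± 0.89 (SD, n = 4) without Mdm2 and 7.47 ± 0.26 (SD, n = 6) with it, a difference of -0.34 (SE 0.33), and this was 0.04 when p53(-/-)mdm2(-/-) replicate 2 was left out. The files do not say which parts of the transcript the features cover, so the lower Rgs5 signal holds for 1 of its 2 features.

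Rgs4, the neighbour of Rgs5 and also a brake on G protein signals, had 5.54 and 4.97 in p53(246/246)mdm2(-/-), 5.48 and 4.94 in p53(-/-)mdm2(-/-), 6.23, 6.24 and 6.16 in p53(246/246)mdm2(+/+), and 5.80, 6.31 and 6.33 in p53(-/-)mdm2(+/+). All mdm2(-/-) samples were below all mdm2(+/+) samples. Its mean was 5.23 ± 0.32 (SD, n = 4) without Mdm2 and 6.18 ± 0.19 (SD, n = 6) with it, a difference of -0.95 (SE 0.16). The difference was -0.95 in p53(246/246) thymi and -0.94 in p53(-/-) thymi. Among the 10 measured genes nearest to the Rgs5 and Rgs4 pair, 5 on each side, differences ran from -0.17 to 0.43 with a median of 0.02. Limma called 1 of them, Hsd17b7, which encodes an enzyme of steroid and cholesterol synthesis, as higher without Mdm2 (0.43, SE 0.10, adjusted p = 0.0487), against 3.87% of all features, and that call was lost in each of 10 fits that left out 1 sample (adjusted p from 0.0504 to 0.118). None of these neighbours was called lower.

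Angpt1, the ligand of Tie2, had 5.51 and 5.06 in p53(246/246)mdm2(-/-), 5.69 and 5.33 in p53(-/-)mdm2(-/-), 6.45, 6.45 and 6.13 in p53(246/246)mdm2(+/+), and 6.34, 5.83 and 6.48 in p53(-/-)mdm2(+/+). Again the mdm2(-/-) samples were all lower, with the closest samples 0.15 apart. The mean was 5.40 ± 0.27 (SD, n = 4) without Mdm2 and 6.28 ± 0.25 (SD, n = 6) with it, a difference of -0.88 (SE 0.16).

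The receptors did not share that direction. Tie1 had 5.48 and 5.34 in p53(246/246)mdm2(-/-), 5.36 and 5.09 in p53(-/-)mdm2(-/-), 4.90, 4.85 and 5.02 in p53(246/246)mdm2(+/+), and 4.86, 4.78 and 4.97 in p53(-/-)mdm2(+/+). Every mdm2(-/-) sample was above every mdm2(+/+) sample, the closest by 0.06. Tie1 averaged 5.32 ± 0.16 (SD, n = 4) without Mdm2 and 4.90 ± 0.09 (SD, n = 6) with it, a difference of 0.42 (SE 0.09). Tek, whose product binds angiopoietin-1, had 4.97 and 4.95 in p53(246/246)mdm2(-/-), 4.78 and 4.46 in p53(-/-)mdm2(-/-), 4.75, 4.60 and 4.61 in p53(246/246)mdm2(+/+), and 4.54, 4.68 and 4.58 in p53(-/-)mdm2(+/+). The mdm2 genotypes overlapped for Tek, although both p53(246/246)mdm2(-/-) samples were the highest of all 10. Its difference over both p53 genotypes was 0.17 (SE 0.10), with 0.31 in p53(246/246) and 0.02 in p53(-/-) thymi. Tek signals were near the lower quartile of all features (4.30 to 4.45 across arrays). Tie1 was dim as well, with its mdm2(+/+) samples at percentiles 32.4 to 35.7 of their arrays. Tek lay at percentiles 26.8 to 35.4 over all 10 samples.

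The smooth muscle and mesenchymal members overlapped between mdm2 genotypes. Acta2 had 9.51 and 8.68 in p53(246/246)mdm2(-/-), 9.55 and 8.37 in p53(-/-)mdm2(-/-), 8.17, 9.04 and 8.72 in p53(246/246)mdm2(+/+), and 9.05, 9.78 and 9.08 in p53(-/-)mdm2(+/+). Its spread within groups was wide, and it averaged 9.03 ± 0.59 (SD, n = 4) without Mdm2 and 8.97 ± 0.52 (SD, n = 6) with it. Pdgfra had 4.89 and 4.61 in p53(246/246)mdm2(-/-), 4.40 and 4.27 in p53(-/-)mdm2(-/-), 4.09, 4.70 and 4.37 in p53(246/246)mdm2(+/+), and 4.68, 4.92 and 4.05 in p53(-/-)mdm2(+/+). It averaged 4.54 ± 0.27 (SD, n = 4) without Mdm2 and 4.47 ± 0.36 (SD, n = 6) with it, also near the dim end of the arrays. For Acta2 and Pdgfra the mdm2 difference was 0.45 and 0.36 in p53(246/246) thymi and -0.34 and -0.21 in p53(-/-) thymi.

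**Figure D1:**
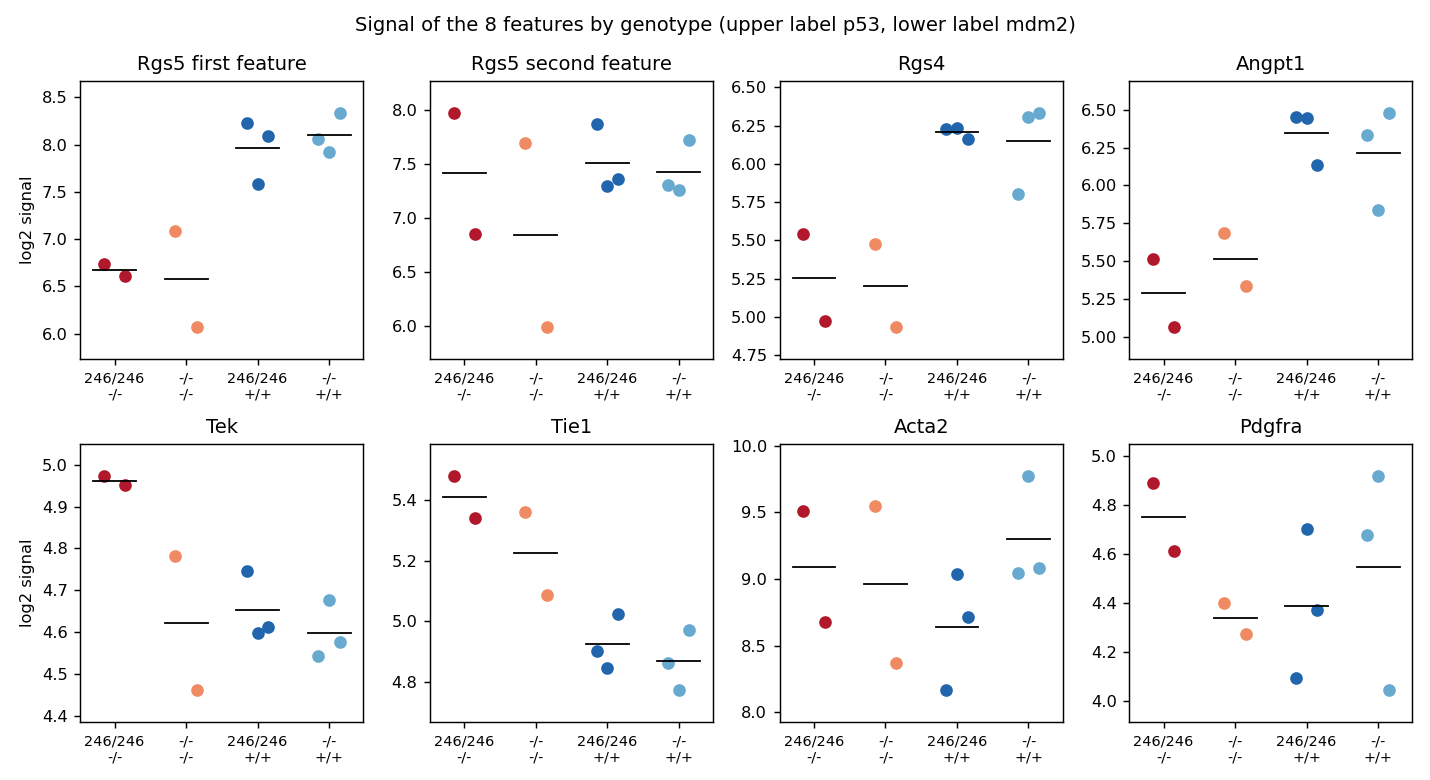
Log2 signal (vertical axis) of each of the 8 features in the 4 groups, with p53 genotype as the upper and mdm2 genotype as the lower label; points are samples and lines are group means. The first Rgs5 feature, Rgs4 and Angpt1 are lower and Tie1 is higher in all 4 mdm2(-/-) samples than in all 6 mdm2(+/+) samples, while the second Rgs5 feature, Tek, Acta2 and Pdgfra overlap.

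Across the members, 4 of 8 features did not overlap between mdm2 genotypes, 3 of them lower and 1 higher without Mdm2. Over all features 8.45% did not overlap, 4.52% lower and 3.93% higher. Since Rgs5, Rgs4 and Angpt1 were chosen on this comparison, nothing is read from that. The plot of mdm2 differences shows Rgs5 (first feature), Rgs4 and Angpt1 on the same side in both p53 genotypes, at -1.30 and -1.53 for Rgs5 and -1.06 and -0.71 for Angpt1 in p53(246/246) and p53(-/-) thymi. The test of whether the mdm2 difference itself differed between p53 genotypes called 0 of 8 members by limma and 0 of all 23332 features (0%), with 997 features at an unadjusted p under 0.05 and 0 members among them. The intervals of that difference were wide, from -0.72 to 1.19 (95%) for the first Rgs5 feature, from -1.08 to 0.38 for Angpt1 and from -0.55 to 2.13 for Acta2.

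**Figure D2:**
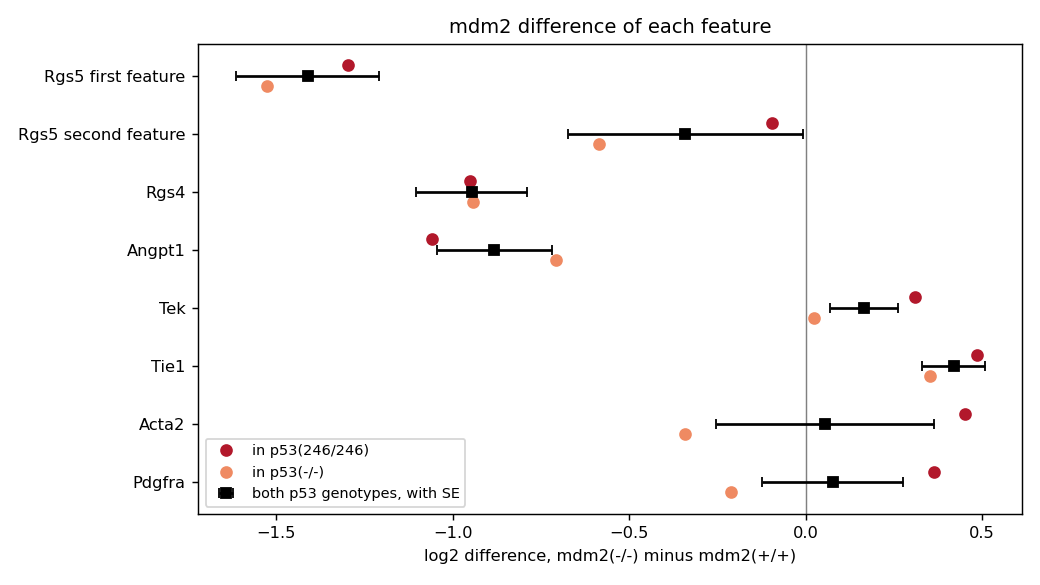
Difference in log2 signal, mdm2(-/-) minus mdm2(+/+), for each feature (horizontal axis); black squares with SE bars give both p53 genotypes together, and circles give each p53 genotype. The first Rgs5 feature, Rgs4 and Angpt1 lie between -1.53 and -0.71, and Tie1 lies between 0.35 and 0.49.

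A list of other genes of pericytes and smooth muscle was also compared between mdm2 genotypes. Rgs5 was chosen on this comparison, so its place against that list is not a result. Of 21 measured genes of that list, limma called 0 lower and 1 higher without Mdm2, against 1.9% and 1.96% of all features. The list's median difference was 0.06 against -0.02 over all features. Of the 21 differences 13 were positive and 8 negative. The gene called was Notch3, a Notch receptor of mural cells, at 7.82 ± 0.13 (SD, n = 4) in mdm2(-/-) and 7.28 ± 0.155 (SD, n = 6) in mdm2(+/+) thymi (difference 0.54, SE 0.11, adjusted p = 0.0307). The forkhead factor gene Foxs1 (0.47, adjusted p = 0.105) and the aminopeptidase gene Anpep (0.68, adjusted p = 0.12) did not pass. Among genes in common use as pericyte markers, chosen after their values were seen, Pdgfrb was 6.28 without and 6.27 with Mdm2 (difference 0.01, adjusted p = 0.966), and Kcnj8 (0.29), Cspg4 (0.13), Higd1b (0.17), Abcc9 (0.06) and Mcam (-0.11) did not pass. The lowest difference of the list was that of the smooth muscle myosin gene Myh11 (-0.24), which did not pass either. The list mean was 5.20 to 5.57 in mdm2(-/-) and 5.16 to 5.35 in mdm2(+/+) samples, with overlap.

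Limma called 2 of 28 measured endothelial genes higher and 0 lower without Mdm2, against 1.96% and 1.9% of all features. Of the 28 differences 22 were positive, with a median of 0.15. Ramp2, which encodes a partner of the adrenomedullin receptor, was 6.005 ± 0.34 (SD, n = 4) in mdm2(-/-) and 5.20 ± 0.13 (SD, n = 6) in mdm2(+/+) thymi (difference 0.81, adjusted p = 0.0281). Sox18, a transcription factor gene of vessels, differed by 0.57 (adjusted p = 0.0337), whereas the adhesion gene Icam2 at 0.49 (adjusted p = 0.0793) did not pass. Of 10 fits that each left out 1 sample, 4 kept the call of Ramp2 and 2 that of Sox18. Pecam1 (-0.11), Cdh5 (0.30) and Kdr (-0.08), endothelial surface genes chosen after their values were seen, did not pass. Pecam1 and Kdr were among the 6 negative differences of the list, so these picks do not stand for it. The list mean was 5.44 to 5.61 in mdm2(-/-) and 5.28 to 5.48 in mdm2(+/+) samples, which overlapped.

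In the angiopoietin and Tie pathway 0 of 14 genes were called in the mdm2 comparison by limma (4909 features of the whole table had an unadjusted p under 0.05). Dok2, an adaptor recruited by Tie2, was the nearest (0.38, adjusted p = 0.0896), followed by the adaptor gene Grb14 (0.35, adjusted p = 0.157) and Angptl1 (-0.21, adjusted p = 0.195). Angpt2, which encodes the context-dependent antagonist of angiopoietin-1 and was singled out with its values known, was 4.55 without and 4.60 with Mdm2. Of 15 genes of the PDGF and VEGF pathways 1 was called, against 3.87% of all features. It was Vegfb, a growth factor gene of the VEGF family, which rose to 8.08 ± 0.13 (SD, n = 4) in mdm2(-/-) thymi, against 7.51 ± 0.055 (SD, n = 6) in mdm2(+/+) thymi (difference 0.57, adjusted p = 0.0128). The co-receptor gene Nrp1 (-0.28, adjusted p = 0.0935) and Vegfa (0.25, adjusted p = 0.204) did not pass.

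Among fibroblast and mesenchyme genes 1 of 24 was called, and it was lower without Mdm2, against 1.9% of all features called lower. Dpp4, which encodes a peptidase that T cells also carry, was 9.20 in mdm2(-/-) and 9.66 in mdm2(+/+) thymi (difference -0.46, adjusted p = 0.024). The part of thymocytes and other cells in the signals and means of the vessel and mural lists was not tested. Pi16 (0.51, adjusted p = 0.0584) and the matrix gene Postn (-0.43, adjusted p = 0.106) did not pass, and the list's median was -0.0045. Of the other 17 measured RGS genes 0 were called, 12 had a negative difference, and the median was -0.12. Rgs3 (-0.60, adjusted p = 0.141), Rgs2 (-0.30, adjusted p = 0.147) and Rgs1 (-0.48, adjusted p = 0.182) had the smallest p. The mean over these 17 RGS genes was 5.75 to 5.79 in mdm2(-/-) and 5.86 to 5.997 in mdm2(+/+) samples, without overlap. Of single features 8.45% did not overlap, and no such share was worked out for means of lists, so nothing is read from that.

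Over the 5 vessel and mural lists together, 5 of 98 measured genes (5.1%) were called in the mdm2 comparison, 4 higher and 1 lower, near the 3.87% of all features (1.96% higher and 1.9% lower). The count changed with the sample left out, as did that over all features (902 with all samples, 114 to 776 with 1 left out). It was 1 without p53(246/246)mdm2(-/-) replicate 2 or without p53(246/246)mdm2(+/+) replicate 1 or 3. It was 2 without p53(-/-)mdm2(+/+) replicate 2 or 3 or p53(-/-)mdm2(-/-) replicate 2, and 3 without p53(246/246)mdm2(-/-) replicate 1 or p53(-/-)mdm2(+/+) replicate 1. Without p53(-/-)mdm2(-/-) replicate 1 it was 4, and without p53(246/246)mdm2(+/+) replicate 2 it stayed at 5. Vegfb was called in all 10 of these fits (adjusted p from 0.0123 to 0.0439 by limma), Dpp4 in 5, Ramp2 in 4, Notch3 in 3 and Sox18 in 2.

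**Figure D3:**
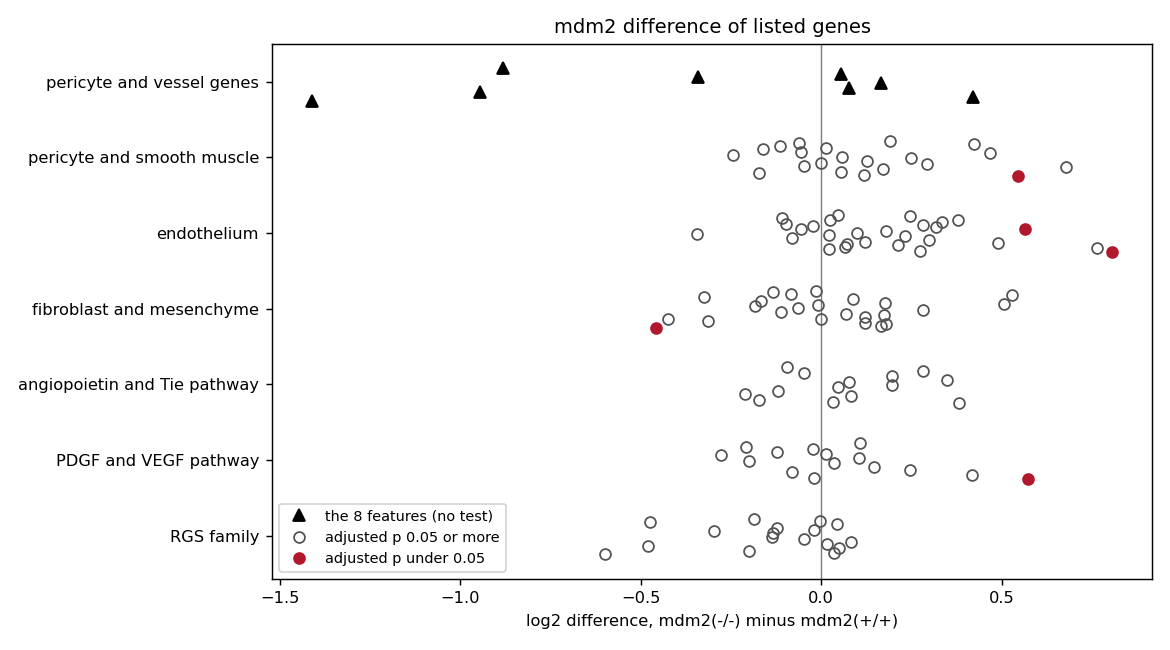
Difference in log2 signal, mdm2(-/-) minus mdm2(+/+) (horizontal axis), for the 8 features (triangles) and for each measured gene of 6 lists (circles, filled where the adjusted p by limma was under 0.05). Rgs5, Rgs4 and Angpt1 were chosen on this difference, so the place of the features against the lists is not a result. The listed genes run from -0.60 (Rgs3) to 0.81 (Ramp2).

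Liver genes separated the mdm2 genotypes. The mean of 11 measured liver genes was 6.42 to 9.03 in mdm2(-/-) and 4.21 to 4.72 in mdm2(+/+) samples, without overlap, and 10 of the 11 were called higher by limma, against 1.96% of all features. Their most abundant gene, Alb, had 9.81 to 11.96 without Mdm2 and 3.99 to 4.24 with it, and the values with Mdm2 lay under the lower quartile of the arrays. The mean of 13 adipocyte genes was 5.42 to 6.90 without and 4.97 to 6.04 with Mdm2, with overlap, and 3 were called higher while 10 did not pass. The gene lists were chosen with earlier results of these data known. The liver and adipocyte counts are therefore a description, and their distance from the share of all features is not a result. The 12 measured thymocyte genes were bright, as the tissue label says, with means of 10.40 to 10.66 without and 10.61 to 10.72 with Mdm2 and 0 called. Of the 12 differences 11 were negative, with a median of -0.16. The part of these tissue signals in the differences of the members was not tested.

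The mdm2(-/-) samples also differed among themselves. In both mdm2(-/-) groups replicate 2 was lower than replicate 1 for all 8 member features, a pattern held by 25.9% of all features. It was not particular to the members. Means of the pericyte and smooth muscle, mesenchyme, thymic epithelium, B and plasma cell, and macrophage and dendritic cell lists were also lower in replicate 2 of both groups. Liver and skeletal muscle means were higher in replicate 2 of both, and the remaining list means went opposite ways in the groups. The reason was not tested. The liver mean was 8.95 in replicate 2 and 7.39 in replicate 1 of p53(246/246)mdm2(-/-), and 9.03 in replicate 2 and 6.42 in replicate 1 of p53(-/-)mdm2(-/-).

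**Figure D4:**
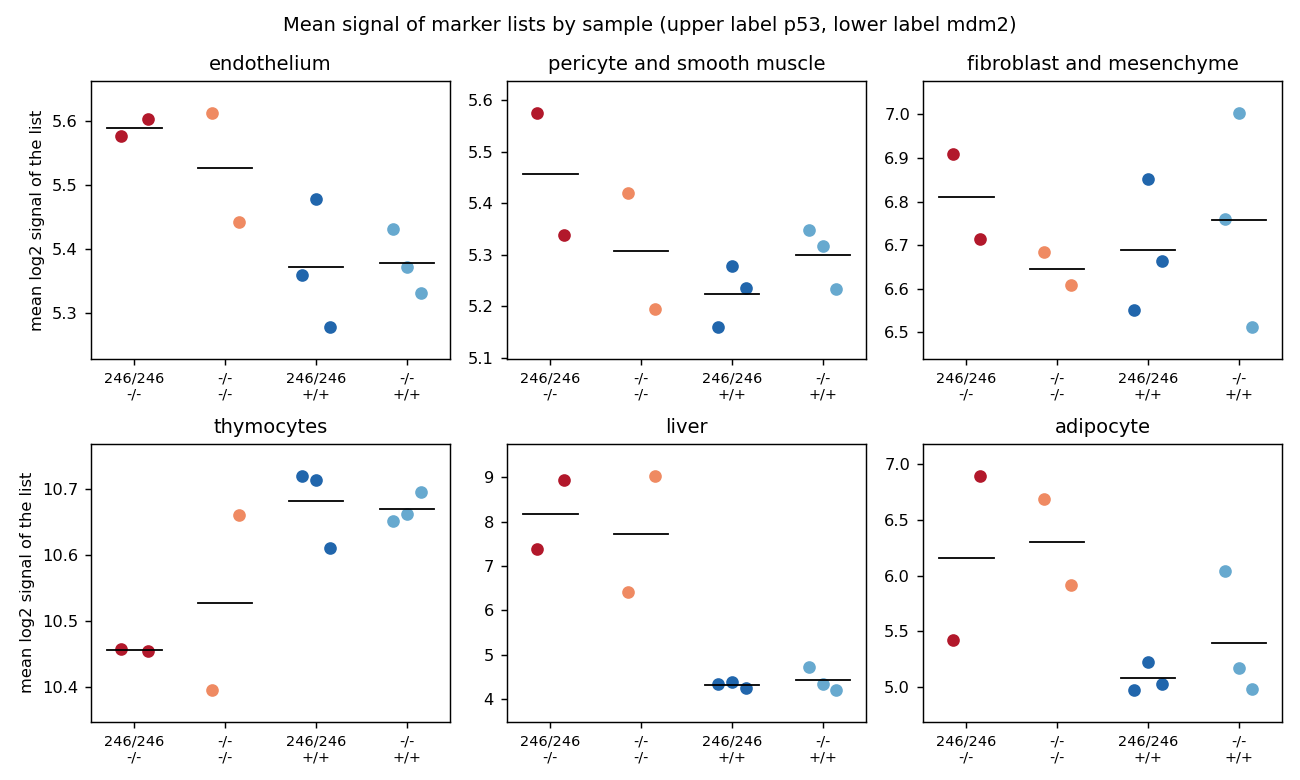
Mean log2 signal (vertical axis) of the measured genes of 6 marker lists in each sample (points) by group, with p53 genotype as the upper and mdm2 genotype as the lower label; lines are group means. The liver mean separates mdm2(-/-) samples (6.42 to 9.03) from mdm2(+/+) samples (4.21 to 4.72), while endothelial, pericyte and mesenchymal means overlap.

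Correlations among the members are a description, since the samples separate by mdm2 genotype for 4 of the 8 features. The first Rgs5 feature correlated at r = 0.91 with Rgs4 and 0.88 with Angpt1, and at -0.68 with Tie1. When group means were removed, the median correlation over the 28 pairs of features was 0.51, and 24 pairs were positive. That rested on the mdm2(-/-) samples, which come as mirror-image pairs once their means are removed. In the 6 mdm2(+/+) samples alone the median was -0.06, and 13 pairs were positive. There the first Rgs5 feature went with the second (0.81) and with Tie1 (0.72), and against Acta2 (-0.82) and Pdgfra (-0.89), while Acta2 and Pdgfra went together (0.79).

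The genes with signals most like each member over the 10 samples were on none of the vessel and mural lists. Those lists held 98 of 14860 genes, so nothing is read from that. The most similar genes were Snx30 (r = 0.99), Pabpc1 and Brms1l (0.96 each) for the first Rgs5 feature. For Rgs4 they were Ube2l6 (0.96), Scnm1 (0.95) and Vwa5a (0.94). For Angpt1 they were Pqbp1 (0.98), Vps26c (0.97) and Esco2 (0.96), and for Tie1 Tfap4, Adipor2 (0.95 each) and Adam1a (0.93). For the second Rgs5 feature they were Klhdc4, Hhip (0.96 each) and Slc24a4 (0.93), and for Tek Olfr44 (0.95), Abhd10 (0.94) and Man2c1 (0.92). For Acta2 they were Sdc3 (0.93), Map3k20 and Musk (0.92 each), and for Pdgfra Olfml2b, Fcrls and Hydin (0.95 each). These were the highest among all genes with a feature of their own, so high values come with the search, and the points share mdm2 genotype.

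Whether mutant p53 changed these genes relative to p53 loss was tested first in mdm2(+/+) thymi, where both groups had 1 array-name prefix. Limma called 0 of 8 member features and 0 of 23332 features (0%), with 690 features and 0 members at an unadjusted p under 0.05. For Rgs5 (first feature) the mean was 7.97 ± 0.34 (SD, n = 3) in p53(246/246) and 8.11 ± 0.21 (SD, n = 3) in p53(-/-) thymi, a difference of -0.14 (95% interval -0.74 to 0.47, adjusted p = 1 by limma). For Rgs4 the difference was 0.06 (-0.42 to 0.54), for Angpt1 0.13 (-0.34 to 0.59), for Tek 0.05 (-0.20 to 0.31) and for Tie1 0.05 (-0.21 to 0.32). Acta2 was 8.64 ± 0.44 (SD, n = 3) in p53(246/246) and 9.30 ± 0.41 (SD, n = 3) in p53(-/-) thymi, a difference of -0.66 (-1.51 to 0.19, adjusted p = 1 by limma). It was the only member whose samples did not overlap, as 7.67% of all features did not. The intervals excluded a doubling or halving of signal for the first Rgs5 feature, Rgs4, Angpt1, Tek, Tie1 and Pdgfra. They did not for the second Rgs5 feature (-0.90 to 1.06) or Acta2. These limits hold for array signal in 3 samples per group, and not for transcript number. Signals of Tek and Pdgfra were near the lower quartile of all features (4.30 to 4.45 across arrays).

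In mdm2(-/-) thymi the same comparison called 0 of 8 member features and 0% of all features by limma (902 features at an unadjusted p under 0.05). Tek had the smallest p of the members, at 4.96 ± 0.02 (SD, n = 2) in p53(246/246) and 4.62 ± 0.23 (SD, n = 2) in p53(-/-) thymi (difference 0.34, 95% interval 0.03 to 0.66, unadjusted p = 0.0371, adjusted p = 1 by limma). Tek and Pdgfra (difference 0.42, -0.24 to 1.07) did not overlap between p53 genotypes there, which 27.7% of all features did not. Over both mdm2 genotypes 0 members were called and 0% of all features (593 at an unadjusted p under 0.05). The members' differences ran from -0.34 for Acta2 to 0.28 for the second Rgs5 feature, and 0 of 8 features were without overlap against 0.223% of all features. Of the 98 listed vessel and mural genes 0 were called in any p53 comparison.

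**Figure D5:**
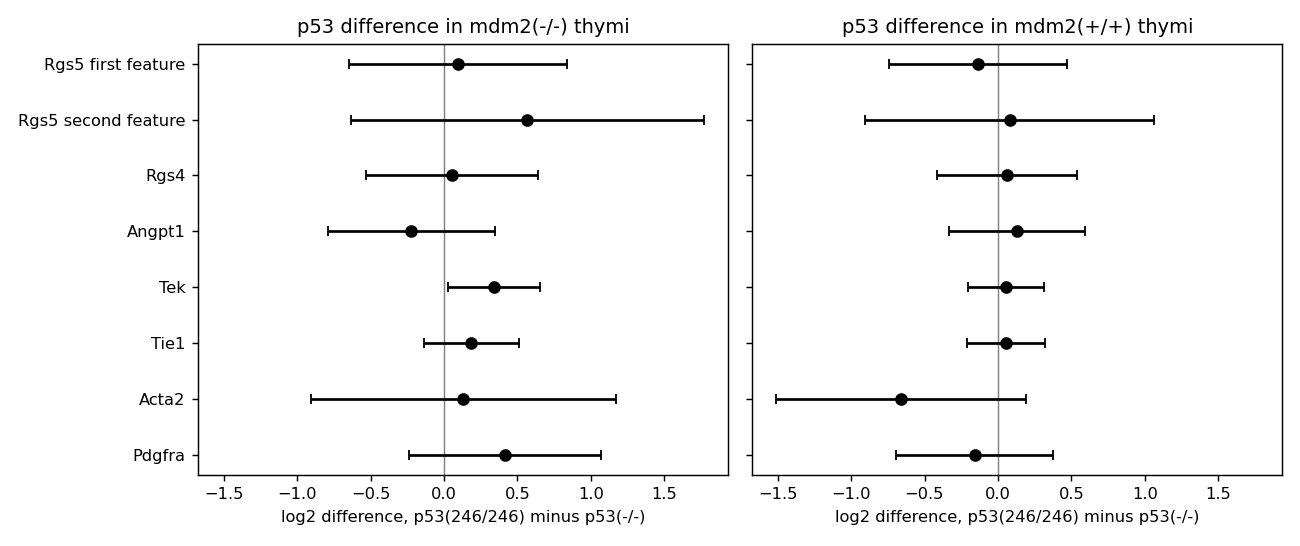
Difference in log2 signal, p53(246/246) minus p53(-/-) (horizontal axis), with 95% intervals from limma for the 8 features, in mdm2(-/-) thymi (left) and mdm2(+/+) thymi (right). All intervals include 0 except that of Tek in mdm2(-/-) thymi (0.03 to 0.66), which did not pass after adjustment over all features.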

How the data were processed

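The deposited values are log2 signals per feature as the authors processed them, one column per sample. Partek 6.5 and genome build mm8 are named per the submitters' processing notes. Normalization, background correction and probe summary were not given in the sources used here, and the log2 scale was read from the values, which ran with sample medians of 6.10 to 6.26. None of the columns was left out (0). Symbols came from the platform annotation, updated through gene IDs to RefSeq of GRCm38.p6, and 14996 features had 1 symbol, 1019 several and 7317 none.

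All 23332 features were fitted in R 4.3.3 with limma 3.58.1 (lmFit, eBayes), two-sided, with Benjamini-Hochberg adjustment over all features and a threshold of 0.05. The p53 comparisons within an mdm2 genotype and the interaction used 1 mean per group over all 10 samples, and the comparisons over both genotypes used an additive model. A feature under the threshold is called. The number of arrays limits the precision (median SE 0.12 to 0.25). The fit was tested on simulated data.

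The members and gene lists were chosen with earlier results of these data known. Named genes were all members, Mdm2, the called genes of each vessel list or the 3 of smallest p, and the 3 genes most correlated with each member. Outside that rule, and with values known, Pdgfrb, Kcnj8, Cspg4, Higd1b, Abcc9, Mcam, Myh11, Pecam1, Cdh5, Kdr, Angpt2, Alb, Hsd17b7, Tfrc and C1qb were named, and Kdm5d and Eif2s3y as a check of the samples. Where a gene had several features the brightest was taken. Lists covered pericytes and smooth muscle, endothelium, mesenchyme, the angiopoietin and PDGF/VEGF pathways, RGS genes, and markers of thymocytes, thymic epithelium, liver, adipocytes, skeletal muscle, erythroid, B and macrophage or dendritic cells. Alternatives were median centring, quantile normalization, leaving out dim features, a plain linear model, eBayes with trend, a replicate block, 2-group fits and leaving out each sample. Samples of mdm2(-/-) groups left alone by this were assumed to vary like the other groups.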

Additional observations from a re-analysis of the deposited data

How the results depend on the processing

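The 4 members without overlap between mdm2 genotypes stayed so under median centring and quantile normalization. Leaving out a sample cannot create overlap, so it could only keep or raise that count and is no check of it. With 1 sample left out the count was 4 to 5, the added one being Tek without p53(-/-)mdm2(-/-) replicate 2. The stricter filter on dim features, at the median signal, removed Rgs4, Angpt1, Tek, Tie1 and Pdgfra, which have no value under it. Of 96 mdm2 differences of members under alternatives 7 had another sign, and among samples left out the range was -0.61 to 0.04 for the second Rgs5 feature, -0.20 to 0.37 for Acta2 and -0.04 to 0.19 for Pdgfra. The 902 features called in the mdm2 comparison became 453 in a plain linear model, and 114 to 776 when 1 sample was left out. The 5 vessel and mural genes became 3 in the plain model and 1 to 5 with a sample left out. Deviations of same-numbered samples in different groups correlated at -0.19 to 0.19 over 13 pairs (1 over 0.1). Those of differently numbered samples correlated at -0.21 to 0.23 over 24 pairs (3 over 0.1), and 2 of 10 samples correlated best with their own number. Deviations within a group sum to 0, so these correlations are not independent of each other and the check is weak. Pairing by replicate number was not seen over the whole array, which cannot exclude a replicate effect shared by some genes. With the replicate block 61 features and 0 of the vessel and mural genes were called in the mdm2 comparison.

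The p53 comparison with Mdm2 called 1 feature, against 0, when only the 2 groups were fitted, and 0 to 1 with a sample left out. Leaving out a sample gave 0 to 5 features in the p53 comparison without Mdm2, 0 in that over both and 0 to 2 in the interaction. None of 540 p53 or interaction values of members under alternatives passed (lowest adjusted p = 0.726 by limma), and 39 had another sign; why signs moved was not tested. Median centring gave 0.0025 for Angpt1 over both mdm2 genotypes and 0.0234 for the interaction of Rgs4, for which quantile normalization gave 0.0059. Ranges with 1 sample left out that spanned 0 follow. With Mdm2 they were -0.2692 to 0.0572 (Rgs5 first feature), -0.0981 to 0.2279 (second), -0.1126 to 0.1529 (Rgs4), -0.0627 to 0.2593 (Angpt1) and -0.4098 to 0.0272 (Pdgfra). Without Mdm2 they were -0.4125 to 0.6013 (Rgs5 first feature), -0.2829 to 1.4193 (second), -0.231 to 0.3366 (Rgs4) and -0.4562 to 0.7205 (Acta2). Over both they were -0.2215 to 0.0904 (Rgs5 first feature), -0.0314 to 0.4923 (second), -0.0374 to 0.1455 (Rgs4), -0.1357 to 0.0888 (Angpt1) and -0.0346 to 0.2038 (Pdgfra). For the interaction they were -0.2759 to 0.7379 (Rgs5 first feature), -0.3632 to 1.339 (second), -0.2916 to 0.276 (Rgs4) and -0.0037 to 0.2676 (Tie1). The correlation of Rgs5 (first feature) with Rgs4 ranged from 0.87 to 0.94.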

Other observations

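The remaining marker lists were set against mdm2 genotype in the same limma fit, which called 3.87% of all features. Of 13 thymic epithelium genes 0 were called, with a median difference of 0.03, and their mean was 9.27 to 9.53 in mdm2(-/-) and 9.26 to 9.56 in mdm2(+/+) samples. Of 10 skeletal muscle genes 0 were called (median 0.20), and of 10 B and plasma cell genes 0 were called (median -0.14). Of 6 erythroid genes the transferrin receptor gene Tfrc was called lower (-0.58, adjusted p = 0.04), although the other 5 differences were positive and p53(-/-)mdm2(-/-) replicate 1 had a mean of 6.23 against 5.13 to 5.29 in the other mdm2(-/-) samples. Of 12 macrophage and dendritic cell genes the complement gene C1qb was called lower (-0.48, adjusted p = 0.04998 by limma), and the list's median was 0.015. Of 10 fits that each left out 1 sample, 1 kept the call of Tfrc (adjusted p from 0.0147 to 0.106 by limma) and 1 that of C1qb (0.0475 to 0.139).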
